A study of Mus musculus with 12 samples.

Results

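Ereg, Areg, Btc, Epgn, Hbegf and Tgfa encode ligands of the epidermal growth factor (EGF) receptor, and they were followed here in bone marrow-derived dendritic cells (BMDCs) of the mouse. The 6 genes were found by their symbols among the 55335 genes of the 12 libraries, and each symbol belonged to 1 gene in every library. The family was chosen by the measured levels of Ereg over the 4 groups, so the levels and differences of Ereg are given as a description, with no test. The other 5 were taken by family membership, and their adjusted p-values come from the fit over all genes. Ereg, Areg, Btc and Epgn lie within 375.5 kb of each other on chromosome 5, and Hbegf and Tgfa lie elsewhere.

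RNA was sequenced from 4 groups of 3 libraries, with a total of 12769773 to 16586334 expected counts per library. WTL replicate 2 stood apart from the others in its ribosomal RNA, which took 5.165% of its counts against 0.383% to 1.185% elsewhere. Its effect is given by value for the ligand genes and, for the genes of the other lists, as the calls that were lost without it. The bone marrow came from adult C57BL/6 mice of both sexes that carried CreER, with normal Ctcf alleles in the WT group and the WT group stimulated with lipopolysaccharide (WTL), and with loxP-flanked Ctcf (CreER;CTCF fl/fl) in the KO and stimulated KO (KOL) groups. All cultures were grown for 6 days with GM-CSF, a growth factor that turns marrow precursors into dendritic cells, and CD11c+ cells were used. The WTL and KOL cultures then received LPS, the bacterial product that triggers Toll-like receptor 4, at 100 ng/ml for 3 h.

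The CreER recombinase is driven from the Rosa26 locus, which is active in most cells, so deletion of Ctcf was not limited by design to dendritic cells, and its extent per cell was not measured here. Deletion was started with 4-OH tamoxifen on the first day of culture. The study describes the drug as given for deletion in the KO and not in the WT cells, and if WT cultures received none, an effect of the drug and one of the genotype cannot be told apart. Ctcf, which encodes the zinc finger protein that holds chromatin loops and domain borders, served as the check of the labels. Its normalized count (a count scaled to the same effective library size, which compares 1 gene between libraries) was 1051, 987 and 975 in WT, 886, 817 and 745 in WTL, 570, 562 and 516 in KO, and 563, 530 and 526 in KOL. Every KO and KOL library was below every WT and WTL library, and KO retained 54.7% of the WT level over the whole gene. Ctcf fell in KO against WT by 0.87 on the log2 scale (SE 0.08, adjusted p = 3.9e-07, edgeR quasi-likelihood test).

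All ligands of this family are made as membrane-bound precursors, are cut from the cell surface by metalloproteases such as ADAM17, and bind ErbB receptors on the same or on neighbouring cells. Binding makes the receptors pair and signals through Ras and the MAP kinases to growth, survival and tissue repair. In the immune system, amphiregulin and epiregulin are known as products of activated myeloid and lymphoid cells that act on epithelium, and HB-EGF also serves as the cell entry receptor of diphtheria toxin.

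A feature that the ligands of this family share is the EGF-like domain, a short loop structure held by 6 cysteines. To show what the members share in sequence, the coding bases of this domain are given below, 5′ to 3′ on the coding strand, from the longest coding sequence of each gene in GENCODE M21, with the cysteine codons in capitals. Each stretch has 108 bases. The domain of Hbegf is not shown or compared here.

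Ereg: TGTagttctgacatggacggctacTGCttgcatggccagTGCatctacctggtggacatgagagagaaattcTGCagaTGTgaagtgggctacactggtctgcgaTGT
Areg: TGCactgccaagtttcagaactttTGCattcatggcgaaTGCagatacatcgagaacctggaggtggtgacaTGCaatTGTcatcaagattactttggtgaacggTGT
Btc: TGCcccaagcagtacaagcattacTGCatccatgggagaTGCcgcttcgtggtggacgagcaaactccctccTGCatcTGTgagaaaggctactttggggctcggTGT
Epgn: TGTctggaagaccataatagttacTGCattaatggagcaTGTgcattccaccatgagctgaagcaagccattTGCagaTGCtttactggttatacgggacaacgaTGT
Tgfa: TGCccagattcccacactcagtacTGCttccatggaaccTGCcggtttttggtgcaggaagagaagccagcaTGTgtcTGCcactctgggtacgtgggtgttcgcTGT

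All 5 domains shown had the same spacing, with 7, 4, 10, 1 and 8 codons between one cysteine and the next. They were located by a cysteine pattern that fixed the spacings of 7, 1 and 8 codons and left little room in the others. The shared spacing is thus in large part a condition of the search. The domain spanned bases 181 to 288 of the 486-base coding sequence of Ereg and bases 415 to 522 of the 744-base coding sequence of Areg, whose precursor carries a longer stretch ahead of the domain. Ereg was identical to Areg at 53.7% of the 108 bases, to Btc at 52.8%, to Epgn at 50.0% and to Tgfa at 45.4%. Of these 5, Btc and Tgfa, which lie on different chromosomes, were the closest pair, with 62.0% of bases identical. Identity within the chromosome 5 neighbourhood spanned 47.2% (Btc and Epgn) to 57.4% (Areg and Btc).

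A RefSeq promoter (GRCm38.p6, 250 bases before to 50 after the start) was at hand for Areg, Btc, Epgn and Tgfa, and not for Ereg and Hbegf. The promoter of Areg is shown because it holds the sole cAMP response element found in the 4, and because Areg moved with LPS in both genotypes. The 150 bases before its start, chr5:91139449-91139598 on the plus strand, are printed with the motif matches in capitals.

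Areg: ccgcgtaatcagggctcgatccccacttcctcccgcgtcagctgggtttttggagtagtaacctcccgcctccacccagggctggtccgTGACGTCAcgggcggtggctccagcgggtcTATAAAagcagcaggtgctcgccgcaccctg

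The first match is the cAMP response element TGACGTCA, whose first base is 61 bases before the start, and the second is the TATA box TATAAA, whose first base is 31 bases before it. Both strands were searched, and the element reads the same on either strand. Of 32851 promoters of the same length, 1.79% held the cAMP response element and 13.6% held the letters TATAAA, at any position. In the ligand genes TATAAA was also found in Epgn, but 86 bases before the start, further out than in Areg. None of the 4 promoters held TGANTCA (AP-1, in 7.81% of all promoters), TTCNNNGAA (STAT, 8.30%) or the NF-kB consensus (4.51%). A match is a match of letters and not a site of binding.

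Ereg (epiregulin) was the ligand gene with the widest range over the 4 groups. Its normalized counts were 60.6, 62.1 and 54.5 in WT, 508, 386 and 418 in WTL, 7.18, 10.6 and 4.63 in KO, and 224, 257 and 243 in KOL. The order of the group means was WTL above KOL above WT above KO, and no library of 1 group reached into the range of the next. Group means were 59.0 ± 4.04 in WT, 437 ± 63.7 in WTL, 7.46 ± 2.97 in KO and 242 ± 17.0 in KOL (SD, n = 3). These rest on few reads in KO, where the expected counts were 7.93, 10.86 and 5.

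Without LPS, Ereg in KO was at 12.6% of its WT mean, a fitted difference of 7.84-fold (log2 fold change -2.97). With LPS, Ereg in KOL was at 55.2% of its WTL mean, a fitted difference of 1.81-fold (log2 fold change -0.85). LPS went with a 7.37-fold higher level in WT and a 32.0-fold higher level in KO. On the linear scale the order was the other way round, since WTL exceeded WT by 378 normalized counts and KOL exceeded KO by 234. The log2 LPS response of KO was 2.12 above that of WT, and the KO response started from a mean of 7.46 normalized counts. Without WTL replicate 2 the log2 fold change of Ereg was 2.97 for WTL against WT and -0.94 for KOL against WTL.

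**Figure D1:**
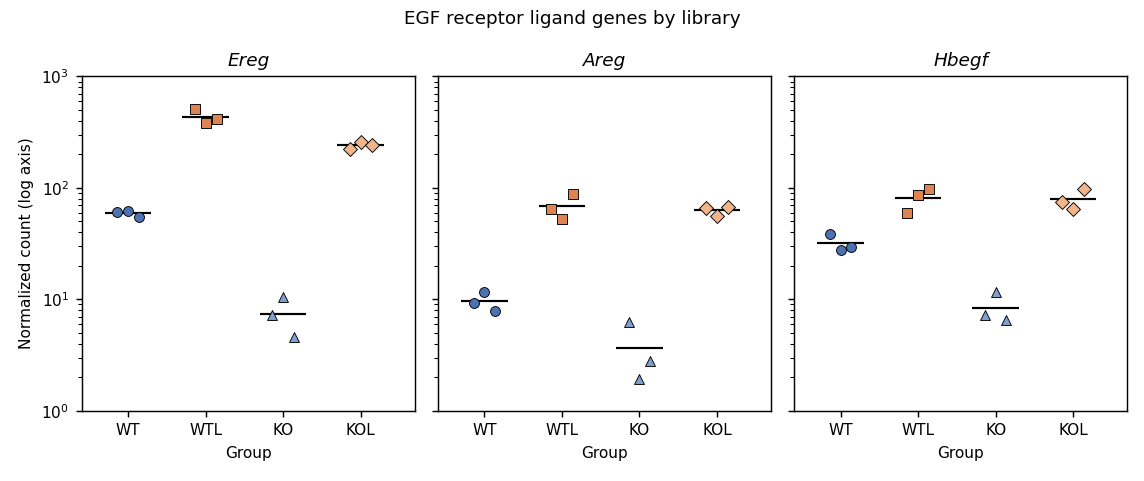
Normalized counts of Ereg, Areg and Hbegf on a log axis, with 1 point per library and a line at the mean of the 3 libraries of a group. For Ereg the 4 groups do not overlap, from 4.63 to 10.6 in KO up to 386 to 508 in WTL, whereas WTL and KOL overlap for Areg and for Hbegf.

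Areg (amphiregulin) starts 46.0 kb downstream of the end of Ereg, in the same orientation (chr5:91139599-91148432, against chr5:91074622-91093646 for Ereg, both on the plus strand of mm10). Its normalized counts were 9.19, 11.7 and 7.78 in WT, 64.7, 53.1 and 88.3 in WTL, 6.28, 1.92 and 2.78 in KO, and 66.7, 56.2 and 67.3 in KOL. All KO libraries lay below all WT libraries, and the WTL and KOL libraries overlapped. Areg rose with LPS in WT by 2.83 on the log2 scale (SE 0.29, adjusted p = 9.3e-07) and in KO by 4.05 (SE 0.34, adjusted p = 1.2e-07, edgeR quasi-likelihood test for both). For comparison, 12.6% of the 14008 genes tested were called up and 9.99% down in WTL against WT, with an adjusted p under 0.05 and at least a 2-fold change. In KOL against KO, by the same rule, 15.1% were called up and 13.0% down.

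Without LPS, Areg was at 38.3% of its WT mean in KO and fell by 1.34 on the log2 scale (SE 0.45, adjusted p = 0.025, edgeR). In that comparison 17.2% of all genes tested were called down and 17.3% up, at a fold cutoff of 1.3. The call rests on expected counts of 7, 2 and 3 in KO and of 10, 14 and 9 in WT, and it was lost when WT replicate 2, KO replicate 2 or KO replicate 3 was left out, with adjusted p of 0.077, 0.096 and 0.085 from edgeR. The log2 fold change was then -1.20, -1.05 and -1.18, and it was -1.97 without KO replicate 1. With LPS, Areg in KOL was at 92.3% of its WTL mean, and the log2 fold change of -0.12 (SE 0.23) did not pass the test (adjusted p = 0.71, edgeR). In KOL against WTL, 12.5% of the genes tested were called up and 12.5% down at a fold cutoff of 1.5. Areg passed the filter on low counts only through its LPS groups, so its large LPS responses are in part a condition of being tested.

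Hbegf, which encodes heparin-binding EGF-like growth factor, lies away from the cluster on chromosome 18 (bases 36504927 to 36515805, minus strand). Its normalized counts were 38.6, 27.7 and 29.4 in WT, 59.3, 86.7 and 97.8 in WTL, 7.18, 11.5 and 6.48 in KO, and 74.2, 64.4 and 98.2 in KOL. WT and WTL did not overlap, nor did WT and KO or KO and KOL, and WTL and KOL covered nearly the same range. Hbegf fell in KO against WT to 26.3% of the WT mean (log2 fold change -1.91, SE 0.32, adjusted p = 2.4e-04, edgeR). Hbegf rose with LPS in WT by 1.36 on the log2 scale (SE 0.24, adjusted p = 2.0e-04) and in KO by 3.22 (SE 0.30, adjusted p = 2.8e-07), both from edgeR. The log2 fold change of KOL against WTL was -0.05 (SE 0.22, adjusted p = 0.88, edgeR), with KOL at 97.1% of the WTL mean. Without WTL replicate 2 the log2 fold change of WTL against WT was 1.32 for Hbegf (adjusted p = 0.0012) and 2.99 for Areg (adjusted p = 1.7e-06), and both calls held in edgeR.

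The LPS response in KO minus that in WT was itself tested for Areg and Hbegf. For Hbegf it was 1.86 on the log2 scale (SE 0.40, adjusted p = 0.0052, edgeR), and for Areg 1.23 (SE 0.51, adjusted p = 0.12, edgeR). In this test 8.70% of the genes were called up and 8.75% down. The Areg value passed the test when KO replicate 1, its highest KO library, was left out (1.85, adjusted p = 0.048, edgeR). On the linear scale, LPS added 49.4 normalized counts of Hbegf in WT and 70.5 in KO, and 59.1 and 59.7 of Areg. On log2(TPM + 1), which shrinks low levels, the difference between the responses was 0.33 for Ereg, 0.44 for Areg (adjusted p = 0.29, limma) and 0.76 for Hbegf (adjusted p = 0.043, limma). Each of the 4 groups enters more than one of these comparisons, so the values of 1 gene across them are not independent of each other.

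Without WTL replicate 2, the difference between the LPS responses was 2.03 for Ereg, 1.06 for Areg (adjusted p = 0.18, edgeR) and 1.90 for Hbegf (adjusted p = 0.011, edgeR). KOL against WTL was then -0.28 for Areg (adjusted p = 0.40) and -0.0083 for Hbegf (adjusted p = 0.99, edgeR for both), and neither passed the test with or without this library. Over the 91 tested genes of the lists described below, markers included, 30 of 32 calls in WTL against WT, 32 of 33 in KOL against WTL and 35 of 39 in the difference between the responses held without it, and no call was gained. Egf (-0.86) and Camp (1.04, adjusted p = 0.062, edgeR) lost their call in WTL against WT, and Cxcl1 (0.56) in KOL against WTL, where Egf and Cxcl1 came under the fold cutoff. In the difference between the responses, Adam15 (adjusted p = 0.073), Map2k1 (0.075), Itgam (0.063) and S100a8 (0.11) no longer passed in edgeR. Their log2 values were -0.58, 0.345, -0.70 and 0.45 with this library and -0.50, 0.340, -0.75 and 0.39 without it.

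**Figure D2:**
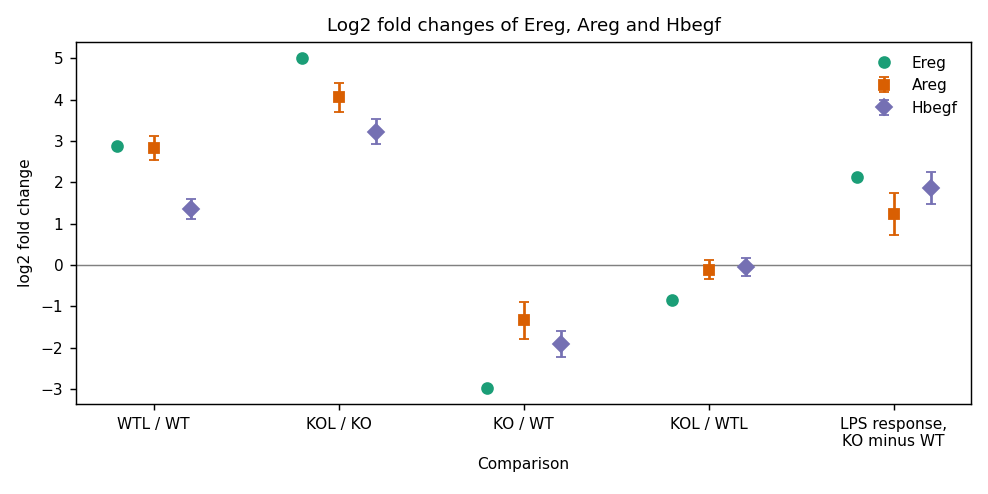
Log2 fold changes of Ereg, Areg and Hbegf in the 4 comparisons and the difference between the LPS responses, with bars of 1 standard error for Areg and Hbegf and none for Ereg. The genes share their sign in each LPS comparison and in KO against WT, and the values for KOL against WTL are -0.85 for Ereg, -0.12 for Areg and -0.05 for Hbegf.

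Btc (betacellulin), Epgn (epigen) and Tgfa (transforming growth factor alpha) did not pass the filter on low counts and were not tested. Btc (chr5:91357261-91402994, minus strand) had expected counts of 2, 0 and 3 in WT, 1, 0 and 0 in WTL, 2, 5 and 3 in KO, and 1, 4 and 6 in KOL. The Btc counts of WT and WTL were all at or under 3, the limit that a count of 0 allows, and those of neighbouring groups overlapped. Epgn (chr5:91027464-91035215, plus strand), which lies 39.4 kb upstream of Ereg, had 0 counts in all WT libraries, and elsewhere 1 in WTL replicate 2, 1 in KO replicate 1, and 2 and 3 in KOL replicates 1 and 3. Tgfa, on chromosome 6 (86195223 to 86275719, plus strand), had 0 counts in all 12 libraries. Btc was higher in every KO library than in every WTL library, at no more than 5 counts. At this depth such counts give no firm difference between groups, and an absence of transcript cannot be read from them.

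TPM, a measure scaled to the same sum in each library, divides by transcript length and so allows different genes to be compared within a library. In WT, Ereg and Hbegf were at 1.45 ± 0.11 and 1.41 ± 0.28 TPM and Areg at 0.93 ± 0.20 TPM (SD, n = 3), and the ranges of Ereg and Hbegf overlapped. In WTL, Ereg was at 7.46 ± 1.34, Areg at 4.66 ± 1.38 and Hbegf at 2.49 ± 0.61 TPM. In KOL, Areg (4.19 ± 0.46 TPM) and Ereg (4.03 ± 0.19 TPM) overlapped, with Hbegf at 2.35 ± 0.50 TPM. In KO every ligand gene was at or under 0.57 TPM in every library, and Ereg averaged 0.17 ± 0.07 TPM, less than Hbegf at 0.37 ± 0.10 TPM. Of all genes tested, 17.7% had a lower mean TPM than Ereg in WT, 49.1% in WTL, 2.71% in KO and 38.3% in KOL.

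The TPM of the 6 genes added up to 3.42 to 4.23 in WT, 12.1 to 16.5 in WTL, 0.78 to 1.23 in KO and 10.1 to 11.6 in KOL, and these ranges do not overlap. Without Ereg, for whose levels the family was chosen, the sums were 6.40, 5.91 and 9.20 in WTL and 6.94, 5.89 and 7.64 in KOL, and these overlap. Ereg made up 37.8% ± 1.7 of the sum in WT and 51.2% ± 6.9 in WTL, against 16.3% ± 4.8 in KO and 37.3% ± 4.0 in KOL (SD, n = 3). Areg made up 24.2% ± 4.3 in WT, 31.4% ± 4.9 in WTL, 31.6% ± 15.0 in KO and 38.6% ± 3.1 in KOL. Hbegf held 36.5% ± 4.6 in WT and 36.8% ± 10.7 in KO, and 17.2% ± 4.4 and 21.5% ± 3.1 in WTL and KOL. The leading ligand by mean share was thus Ereg in WT and WTL, Hbegf in KO and Areg in KOL, although Ereg and Hbegf overlapped in WT, Hbegf and Areg in KO and Areg and Ereg in KOL. In KO replicate 1, Areg led with 46.3% against 24.4% for Hbegf. These are bulk libraries, in which fewer cells of a type and less RNA per cell cannot be told apart.

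**Figure D3:**
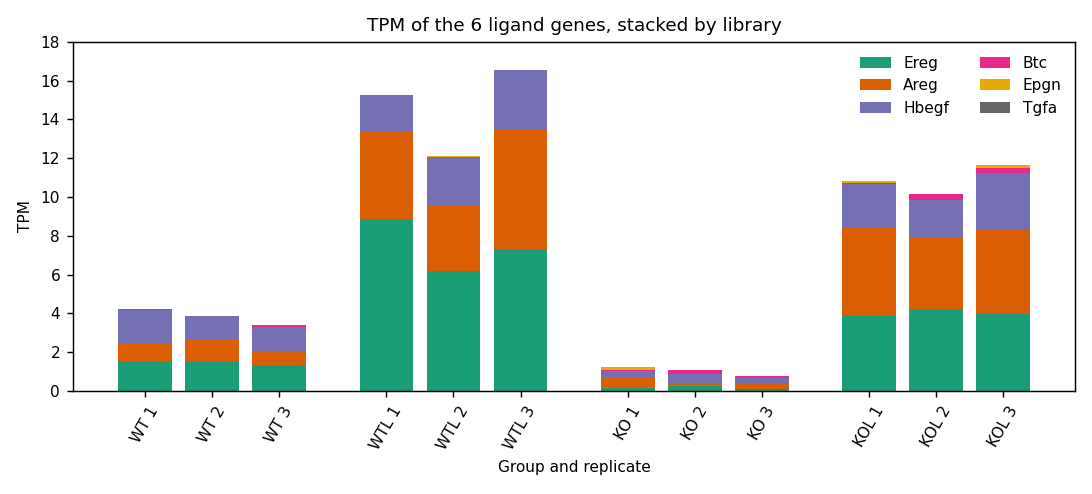
TPM of the 6 ligand genes stacked in each of the 12 libraries, with the y axis from 0. The sum stays at or under 1.23 TPM in KO and reaches 10.1 to 16.5 TPM in the LPS groups, where Ereg, Areg and Hbegf make up nearly all of it.

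Other EGF-family ligands were looked up as a list of 5, of which Egf, Nrg1 and Nrg4 were tested. Nrg1 (neuregulin 1, a ligand of ErbB3 and ErbB4) had 122, 148 and 151 normalized counts in WT, 204, 247 and 252 in WTL, 145, 160 and 150 in KO, and 553, 583 and 477 in KOL. Unlike Ereg it was highest in KOL, where it was above WTL by 1.19 on the log2 scale (SE 0.11, adjusted p = 6.0e-07, edgeR). Nrg4 fell in KO (log2 fold change -1.43, adjusted p = 5.1e-05) and was also lower in KOL than in WTL (-1.06, adjusted p = 5.6e-04), both from edgeR. Egf itself fell with LPS in WT (log2 fold change -1.11, adjusted p = 0.0062, edgeR). By TPM, Nrg1 was at 8.17 to 10.06 in WT, above Ereg, Areg and Hbegf, and averaged 22.4 in KOL. Nrg2 reached at most 1.83 TPM and Nrg3 at most 0.04 TPM in any library.

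The receptors were sparse in these cells. Egfr, the receptor of all 6 ligands, averaged 0.86 TPM in WT, 0.52 in WTL, 1.23 in KO and 0.58 in KOL, and Erbb4 was at 0 counts in all libraries. On normalized counts, which compare 1 gene between libraries, the LPS changes of Egfr were -0.19 in WT and -0.12 in KO on the log2 scale and did not pass the test (adjusted p = 0.39 and 0.54, edgeR). Egfr had 41.3, 32.7 and 42.4 normalized counts in WT and 61.9, 61.4 and 56.5 in KO, without overlap, and rose in KO by 0.63 on the log2 scale (SE 0.17, adjusted p = 0.0068, edgeR). Erbb3 rose in KO by 0.89 (adjusted p = 0.0028, edgeR), so that 2 of the 3 receptors tested were called up in KO, beside 17.3% of all genes. Erbb2, the receptor that pairs without a ligand of its own, rose with LPS in WT by 2.78 on the log2 scale (adjusted p = 6.5e-04, edgeR) from 2.67 to 18.7 mean normalized counts. It had expected counts of 5, 1 and 3 in WT and of 0, 4 and 2 in KO, and passed the filter on low counts only through its LPS groups, so this difference is in part a condition of being tested.

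Of 10 genes of the shedding machinery 9 were tested, of which 5 rose and 1 fell in KO against WT, where 17.3% of all genes were called up and 17.2% down. In KOL against WTL, 2 were called up and none down, beside 12.5% of all genes in each direction, with a median of -0.13 on the log2 scale beside -0.03 for all genes. Timp3, 1 of these 2, encodes an inhibitor of metalloproteases and not a part that sheds ligands, and it passed the filter only through its LPS groups. Adam17, the main sheddase of Areg, Ereg, Hbegf and Tgfa precursors, was among the abundant transcripts, with 112, 108 and 113 TPM in WT and 159, 164 and 163 TPM in KO, and rose in KO by 0.64 on the log2 scale (adjusted p = 0.0020, edgeR). Rhbdf2 (iRhom2), which carries ADAM17 to the surface of myeloid cells, rose with LPS in WT by 1.38 (adjusted p = 1.7e-09) and in KO against WT by 0.55 (adjusted p = 5.0e-05), both from edgeR. In KOL against WTL, Adam17 was at -0.13 (adjusted p = 0.50) and Rhbdf2 at -0.33 (adjusted p = 0.0032), both from edgeR. Neither was called there, Rhbdf2 because it was under the fold cutoff of 1.5. Rhbdf1 (iRhom1), a relative with the same role, had 8.27, 9.22 and 11.2 normalized counts in WT, 17.5, 26.0 and 35.1 in WTL, 26.0, 23.0 and 33.3 in KO, and 82.8, 71.4 and 63.0 in KOL. It had the largest called change of the list in KO against WT (1.51, adjusted p = 7.7e-04) and also rose in KOL against WTL (1.44, adjusted p = 2.1e-04) and with LPS in WT (1.46, adjusted p = 8.0e-04), on the log2 scale in edgeR. Adam8 was the gene that fell in KO, from a mean of 8378 to 4559 normalized counts (log2 fold change -0.88, adjusted p = 3.2e-07, edgeR). The median log2 fold change of the 9 genes was 0.55 in KO against WT, beside -0.01 for all genes tested.

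Downstream, the feedback inhibitors of the receptor held 14 genes, 11 of them tested, with 2 up and 3 down in KO against WT and 1 up and 1 down in WTL against WT. The shares over all genes were 17.3% and 17.2% in the former and 12.6% and 9.99% in the latter, so that the LPS counts and the 2 up in KO are near the background. The 3 down in KO are few genes and were not tested as a set. Lrig3, the 1 down with LPS and 1 of the 3 down in KO (log2 fold change -1.51, adjusted p = 0.031, edgeR), passed the filter only through WT, and Lrig1, 1 of the 2 up in KO (1.34, adjusted p = 0.028, edgeR), only through KOL, so these calls are in part a condition of being tested. Spred1, an inhibitor of Ras signaling, rose with LPS by 2.36 on the log2 scale in WT (adjusted p = 1.1e-11, edgeR). Dusp6, a phosphatase of ERK, fell in KO against WT by 0.78 (adjusted p = 8.8e-05, edgeR). Of the Ras-MAPK relay, 11 genes were counted, all of them tested, and 2 further genes of the list are not reported here. In KO against WT, Hras (0.96, adjusted p = 2.0e-05) and Grb2 (0.65, adjusted p = 5.4e-07) rose on the log2 scale in edgeR, and in WTL against WT Map2k1 rose (1.44, adjusted p = 6.2e-10, edgeR). These were the only calls of the 11 in the 2 comparisons, and they are near the shares over all genes called up. The median log2 fold change of the feedback inhibitors was -0.19 in KO against WT, beside -0.01 for all genes.

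The CREB factors, which bind the cAMP response element, their CRTC coactivators, which bind CREB, and the route to prostaglandin E2, a lipid that raises cAMP, were also listed. Crem rose in KOL against WTL by 1.16 on the log2 scale (adjusted p = 3.3e-08, edgeR), the sole call of 6 factors there. Over all genes 12.5% were called up and 12.5% down in that comparison. In KO against WT, Crem fell by 0.39 (adjusted p = 0.0019, edgeR). Ptgs2 (cyclooxygenase 2) had 181, 191 and 179 normalized counts in WT, 6351, 4702 and 4548 in WTL, 35.0, 34.6 and 30.6 in KO, and 2180, 2301 and 2632 in KOL, with no overlap between groups. It fell in KO against WT (log2 fold change -2.46, adjusted p = 3.7e-08) and in KOL against WTL (-1.13, adjusted p = 1.7e-06), both from edgeR, and so had the order of groups seen for Ereg. Ptges, the synthase that follows it, rose with LPS in WT by 3.60 (adjusted p = 9.4e-14) and in KO by 1.71 (adjusted p = 1.4e-10), both from edgeR. Of the 4 genes of the route 3 were called down in KOL against WTL, beside 12.5% of all genes.

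The 4 clustered ligand genes span 375.5 kb, with the start of Epgn and the end of Btc as outer ends. Within 500 kb of these ends, 30 other genes are annotated, of which 12 are protein coding, 9 were tested and 15 had 0 counts in every library. On the side of Epgn lies a group of CXC chemokine genes, whose products draw neutrophils. Of the 9 tested neighbours, 5 were called down and 2 up in KO against WT, 5 up and 1 down in WTL against WT, and 6 up in the difference between the LPS responses. Over all genes 17.2% were down and 17.3% up in KO against WT, 12.6% up and 9.99% down in WTL against WT, and 8.70% up in the difference. Cxcl5, called up in both of the latter, passed the filter only through its LPS groups. Rassf6, up in WTL against WT and in KO against WT, averaged 3.16 normalized counts in WT, 7.45 in WTL, 11.8 in KO and 19.8 in KOL. It had at most 19 counts in any library, so its calls may be in part a condition of being tested. Cxcl2 had 4472 mean normalized counts in WT, 25214 in WTL, 734 in KO and 17475 in KOL, and fell in KO against WT (log2 fold change -2.61, adjusted p = 3.4e-11, edgeR). Cxcl3 fell in KO (log2 fold change -3.31, adjusted p = 1.7e-09) and in KOL against WTL (-2.45, adjusted p = 1.5e-08), both from edgeR. Cxcl1 fell in KO (log2 fold change -2.31, adjusted p = 2.3e-08) but rose in KOL against WTL by 0.66 (adjusted p = 6.8e-04, edgeR). The expected counts of Cxcl2 and Cxcl3 were not whole in every library (23824.06 and 26340.65 at the highest), since RSEM divides reads that fit several genes, and their values are uncertain to that extent.

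Between the chemokine genes and Epgn lies Mthfd2l, which encodes a mitochondrial folate enzyme. It rose in KO against WT by 0.91 on the log2 scale (adjusted p = 0.0016, edgeR), so direction was not shared along the stretch. Epgn, 39.4 kb from Ereg, had at most 3 counts in any library, and Btc, 208.8 kb past Areg, at most 6. An antisense transcript, Gm19610, overlaps the first 152 bases of Ereg, but it never exceeded an expected count of 0.14. U90926, the listed neighbour that lies outside these 500 kb, had a log2 fold change of -3.37 in KO against WT that did not pass the test (adjusted p = 0.097, edgeR). It was at 8.75 in WTL against WT (adjusted p = 1.3e-10) and at -5.06 in KOL against WTL (adjusted p = 2.9e-09), both from edgeR. U90926 passed the filter only through its LPS groups, so its LPS change is in part a condition of being tested.

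**Figure D4:**
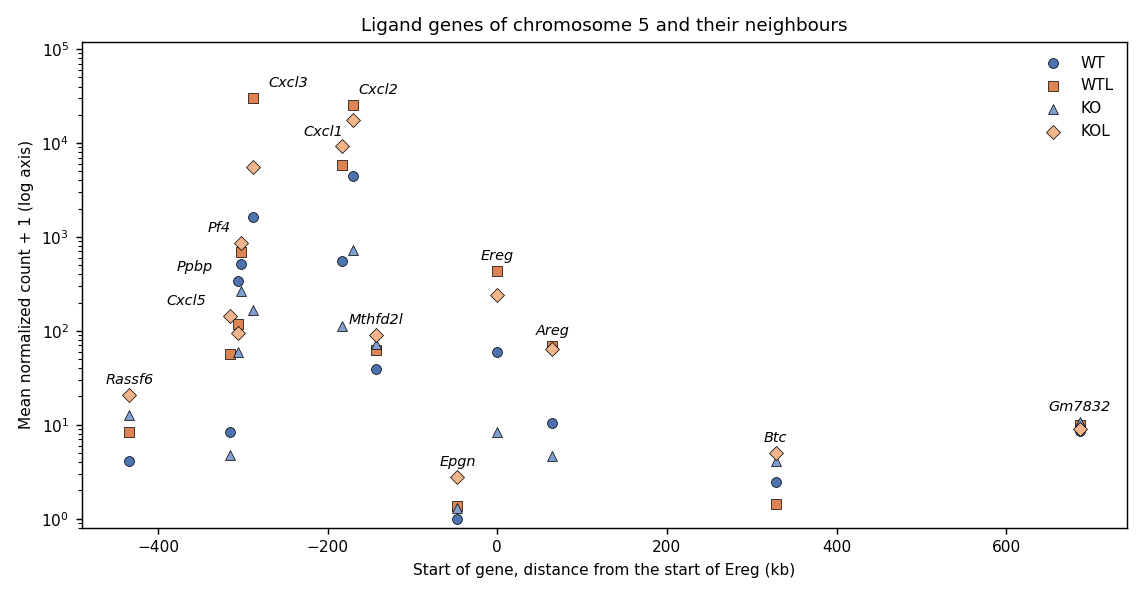
Mean normalized count plus 1, on a log axis, of each tested gene near the cluster and of Btc and Epgn, against the distance of its start from that of Ereg in kb, with 1 symbol per group. Cxcl1, Cxcl2, Cxcl3, Ereg and Areg have KO as their lowest group, while KO lies above WT for Mthfd2l.

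Among 9337 genes with a mean of at least 100 normalized counts, the 5 with the pattern most like Ereg over the 12 libraries were Tnf, Dck, Trim25, Rgs1 and Epsti1. Likeness was Pearson's r of log2(CPM + 1), CPM being the count relative to library size, which was 0.997 for Tnf and 0.996 for the other 4, with Spearman's rho of 0.951 to 0.993. The added 1 shrinks low levels, such as those of Ereg in KO, more than those of the genes compared with it. The ranking and the values of r therefore depend in part on it. The libraries fall into 4 groups, so these values mostly describe the order of 4 group means and are given without a p-value. Tnf, the inflammatory cytokine, averaged 2459 normalized counts in WT, 26399 in WTL, 694 in KO and 12335 in KOL. In KO these 5 genes were at 28.2% (Tnf) to 56.6% (Dck) of their WT means, and Ereg was at 12.6%. In KOL they were at 46.7% (Tnf) to 80.7% (Dck) of WTL, and Ereg was at 55.2%. The 5 were picked for likeness over these same libraries, so nearness to Ereg here follows in part from the choice. By the same measure r with Ereg was 0.948 for Areg and 0.955 for Hbegf.

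**Figure D5:**
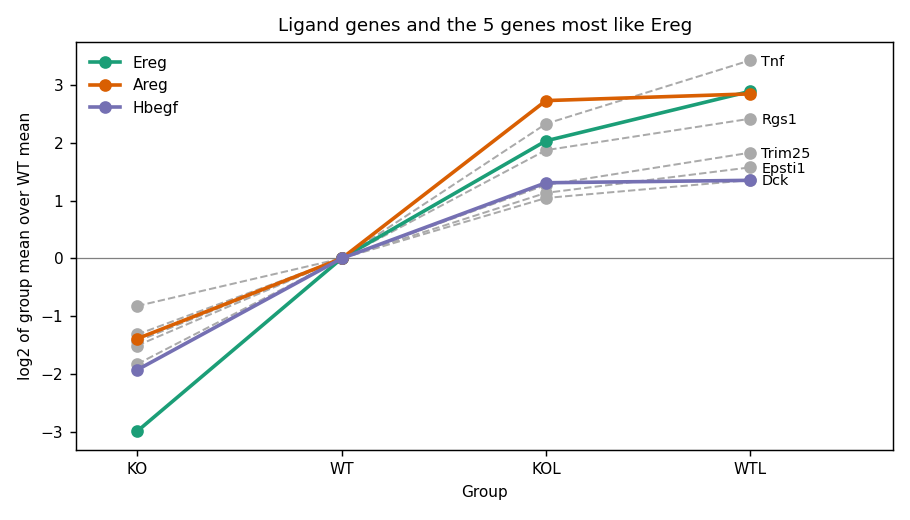
Log2 of the group mean of normalized counts over the WT mean, for Ereg, Areg, Hbegf and, dashed, the 5 genes most like Ereg, with the groups ordered by the mean of Ereg. Ereg has the lowest KO value, at -2.99, and Areg and Hbegf are nearly level between KOL and WTL.

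The labelled cell type was checked with lists of markers. Itgax (CD11c) was at 206 to 612 TPM and Cd74, the invariant chain of MHC class II, at 4130 to 9532 TPM over the 12 libraries, while the macrophage markers Cd68 (293 to 486 TPM) and Csf1r (83.9 to 517 TPM) were present as well. Flt3, the receptor of dendritic cell precursors, did not exceed 4.10 TPM. Of mast cells, basophils, lymphocytes and epithelium, which can make these ligands, many but not all listed transcripts were at or near 0. Tpsb2, Cma1 and Mcpt4 of mast cells were at 0 in all libraries, and 7 of 10 mast cell and basophil markers stayed under 1 TPM throughout. The other 3 reached 4.15 TPM for Kit, 4.44 TPM for Gata2 and 35.3 TPM for Hdc. All 4 B cell markers stayed under 1 TPM, and Cd3e, Cd3g and Cd4 did not exceed 0.30 TPM. Of the other markers of T and innate lymphoid cells, Il7r was at 39.4 to 90.4 TPM, Il1rl1 and Rora reached 3.23 and 3.13 TPM, and Gata3 and Cd3d reached 1.44 and 1.0 TPM. Of 6 markers of epithelium and fibroblasts, Epcam was the most abundant, at 1.52 to 5.11 TPM.

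Some markers of other cell types differed between the groups. The summed TPM of 7 neutrophil markers was 391, 369 and 382 in WT, 428, 340 and 430 in WTL, 209, 225 and 192 in KO, and 287, 331 and 323 in KOL, and S100a8 was the most abundant in every library. S100a9 fell in KO against WT by 1.68 on the log2 scale (adjusted p = 2.7e-08, edgeR), and S100a8 by 0.45 (adjusted p = 0.0027, edgeR). Camp, Ltf and Mpo were called down there as well, but no KO library of theirs reached the count level of the filter, so their fall is in part a condition of being tested, and Ly6g and Elane were not tested. Il7r, the most abundant of the 8 markers of T and innate lymphoid cells, fell in KO by 0.70 (adjusted p = 4.5e-04, edgeR), and its LPS change of 0.28 in WT did not pass the test (adjusted p = 0.069, edgeR). Il1rl1, the IL-33 receptor, fell in KO by 1.85 (adjusted p = 2.8e-07), Kit fell by 1.51 (adjusted p = 3.7e-06) and Gata2 rose by 2.82 (adjusted p = 7.1e-07), all from edgeR. Hdc, the histamine-forming enzyme, rose with LPS from a mean of 1.03 to 31.6 TPM in WT and from 1.15 to 26.0 TPM in KO, and made up most of the summed mast cell and basophil list there. Its log2 fold change of 0.26 in KO against WT did not pass the test (adjusted p = 0.44, edgeR). Epcam fell in KO against WT by 0.54 (adjusted p = 0.049), rose in KOL against WTL by 1.298 (adjusted p = 1.7e-04), and its LPS response was 1.84 higher in KO than in WT on the log2 scale (adjusted p = 7.9e-04), all from edgeR. The part of these cell types in the levels of Ereg, Areg and Hbegf was not tested.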

How the data were processed

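RNA-seq libraries of 12 BMDC cultures, 3 in each of 4 groups, were grouped and numbered by their titles, and the series describes the triplicates as biological, so p-values measure the spread between these libraries. The authors aligned reads to mm10 with STAR (2.5.1 in the submitters' processing notes) and quantified genes with RSEM. They deposited an expected count for each of 55335 genes, an estimate that need not be whole, and a TPM value, which the authors scaled to a common sum, so that depth is not kept. The deposited FPKM was not used. The methods name a stranded poly(A) kit and the labels a depletion of ribosomal RNA. The strand setting of RSEM is not given in the sources used here, and overlapping and antisense genes are uncertain.

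Expected counts were rounded, filtered by group with filterByExpr (14008 genes left) and normalized by TMM. One quasi-likelihood fit of all 12 libraries without covariates was made in edgeR 4.0.16 (R 4.3.3), with Benjamini-Hochberg adjustment over all genes at 0.05. Its estimate of spread for a gene is shared by the groups, though replicates differed more within the LPS groups. The mean squared difference between replicates, relative to that from counting alone, was 1.70 to 1.92 in KO and 3.33 to 4.75 in WT. It was 31.1 to 86.0 in WTL and 8.78 to 31.4 in KOL. LPS effects needed a fold change of 2, KO against WT 1.3, and KOL against WTL 1.5. The fit was first tested on simulated data. Totals ran from 12769773 to 16586334 counts per library, and the floor was set at 3 counts per library. Intervals from counting were not added, since replicate spread is given. Positions are from GENCODE M21 (54587 identifiers matched with their version) and promoters from RefSeq.

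The members and lists were chosen with earlier results of these data known, and 2 genes of the Ras-MAPK list, beside the 11 counted, are not reported here. Named were the 6 ligand genes, Ctcf, list members past the threshold with the largest change or at or near 0, the 5 genes most like Ereg, and genes within 500 kb of the chromosome 5 ligand genes. Other list members were named for their role after their values were seen. Alternatives were DESeq2 1.42.0, DESeq2 size factors, fits of 6 libraries, other count filters, the replicate block, no fold cutoff, limma 3.58.1 on log2(TPM + 1) or with a pseudocount of 0.1, and each library left out.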

Additional observations from a re-analysis of the deposited data

Results flagged for a closer look

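The LPS response differed between genotypes, by the test of the difference itself (edgeR, adjusted p under 0.05), for the genes below, and each value is the log2 LPS response in KO minus that in WT. Of Areg and Hbegf, the ligand genes put to this test, Hbegf passed, at 1.86. Among related ligands, Nrg1 stood at 1.08. In the shedding machinery, Adam8 was above 0 at 0.38, and Rhbdf2 (-0.88), Adam17 (-0.77), Adam15 (-0.58) and Adam10 (-0.55) were below it. Of the feedback inhibitors, Dusp6 (1.21), Spred2 (0.75) and Cblb (0.40) were above 0 and Lrig2 (-0.61) was below. In the Ras-MAPK relay, Map2k1 was at 0.34, and Crem of the CREB factors was at 1.55.

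On the prostaglandin route, Ptgs2 (1.32) and Ptger4 (0.50) were above 0, and Ptges (-1.89) and Ptger2 (-0.90) were below. Of 9 tested chromosome 5 neighbours 6 were called up, beside 8.70% of all genes called up and 8.75% down in this test, with Cxcl1 at 2.96, Cxcl5 at 2.32, Ppbp at 2.18, Cxcl2 at 2.08, Pf4 at 1.29 and Cxcl3 at 0.86. Cxcl5 passed the filter on low counts only through its LPS groups, so its test is in part a condition of that. Of the LPS check genes, Il6 (1.56), Il12b (1.11) and Tnf (0.73) were above 0 and Il1b was below, at -1.47. Il6, Il12b and Tnf were called down in KO against WT, with log2 fold changes of -2.54, -2.19 and -1.83. In KOL against WTL they were called down as well, at -0.97, -1.07 and -1.10. Il1b was called up in KO against WT (1.29) and not called in KOL against WTL (-0.18). Several of these genes start from a lower level in KO, as their values in the report show.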

How the results depend on the processing

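The signs of the log2 fold changes of Ereg, Areg and Hbegf held under every alternative that gave a value, apart from KOL against WTL, where Areg turned to 0.11 without WTL replicate 3 and Hbegf to 0.10 without WTL replicate 3 and 0.07 without KOL replicate 2. Over the single libraries left out, this change ran from -0.28 to 0.11 for Areg and from -0.24 to 0.10 for Hbegf, and the cause was not tested. None of the 3 had 10 counts in every library, so that filter gave no value for them, and Areg did not pass the filter in the 6 libraries of KO and WT. On log2(TPM + 1) the median of all genes moved to -0.44 in WTL against WT, -0.10 in KO against WT and -0.38 in KOL against KO. Relative to it, Ereg was at 2.21, -0.96 and 2.49, Areg at 1.97, -0.44 and 2.35, and Hbegf at 0.96, -0.70 and 1.66. The pseudocount shrinks such low genes by construction. Before that shift, Hbegf in WTL against WT was at 0.53 on log2(TPM + 1) (adjusted p = 0.0089, limma). It was at 0.77 on log2(TPM + 0.1) (adjusted p = 0.013, limma), and both values are under the 2-fold cutoff of a call. The difference between LPS responses fell to 0.33 for Ereg, 0.44 for Areg and 0.76 for Hbegf, against 1.69, 1.22 and 1.62 on log2(TPM + 0.1), where the medians were -0.51, -0.12 and -0.45 in the order above.

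Genes called up and down numbered 1766 and 1400 in WTL against WT, 2427 and 2405 in KO against WT, 1751 and 1752 in KOL against WTL, 2113 and 1819 in KOL against KO, and 1218 and 1225 in the difference between LPS responses. Without a fold cutoff they were 4209 and 4224 in WTL against WT, 2991 and 3266 in KOL against WTL, and 4704 and 4752 in KOL against KO. With at least 10 counts in every library, which leaves fewer genes, they were 1147 and 892 in WTL against WT and 1394 and 1210 in KOL against KO. On log2(TPM + 1) they were 766 and 1973, 1563 and 2527, 1133 and 1294, 931 and 2177, and 913 and 607, and on log2(TPM + 0.1) 936 and 3076, 1509 and 2530, 1336 and 1613, 1188 and 3197, and 817 and 470, in the same order. Leaving out 1 library gave 841 to 1756 up and 671 to 2013 down for the difference between LPS responses, with 684, 688 and 671 down without WT replicates 1, 2 and 3 and 1756 up and 2013 down without KOL replicate 2.

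Replicate numbers recur in the titles, but same-numbered libraries did not deviate together (correlations of -0.29 to 0.11 over 18 pairs, 1 of them over 0.1). With the replicate number as a block, 1041 and 1022 genes were called in the difference between LPS responses, and no call of Areg or Hbegf changed. Depth limits Btc, Epgn and Tgfa, which had at most 6 counts in any library.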

Other observations

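Of 10 dendritic cell markers 1 was called up and 4 down in KO against WT, and of 6 macrophage markers 1 up and 3 down, beside 17.3% and 17.2% of all genes. Itgax (CD11c) was the dendritic cell marker that rose, by 0.83 on the log2 scale (adjusted p = 1.3e-06, edgeR). Flt3, the receptor of the dendritic cell growth factor FLT3 ligand, fell in KO against WT by 2.00 on the log2 scale (SE 0.22, adjusted p = 3.8e-06, edgeR) and in KOL against WTL by 0.59 (adjusted p = 0.022, edgeR). Of the macrophage markers, Fcgr1 (-1.93, adjusted p = 1.8e-07), Mertk (-1.16, adjusted p = 1.4e-05) and Adgre1 (-0.81, adjusted p = 1.7e-04) fell in KO against WT on the log2 scale in edgeR. Csf1r, the receptor of the macrophage growth factor M-CSF, rose in KO against WT by 0.73 (adjusted p = 2.3e-04, edgeR) and fell with LPS in both genotypes, by 1.18 in WT and 2.04 in KO (adjusted p = 1.3e-06 and 3.9e-09, edgeR). Of 4 eosinophil markers 3 were tested. Ccr3 was called up in KO against WT (1.68, adjusted p = 0.025, edgeR) but reached the count level of the filter in 1 KO and 2 KOL libraries only, and Prg2 was at -1.29 and did not pass the test (adjusted p = 0.24, edgeR). Siglecf, known from eosinophils and some macrophages, rose in KO by 1.02 (adjusted p = 5.9e-06, edgeR), with 10.9, 12.9 and 10.4 TPM in WT and 18.9, 23.0 and 22.7 TPM in KO. Cd86, a costimulatory molecule of mature dendritic cells, rose with LPS by 2.55 in WT and 3.03 in KO (adjusted p = 1.2e-12 and 2.0e-13, edgeR), and its log2 fold change of -0.01 in KO against WT did not pass the test.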
